A study of Mus musculus with 22 samples.

Results

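The genes of 10 transcription factors of the ETS family were followed in BcorΔE9-10 myeloid progenitors: Erg, Fli1, Ets1, Ets2, Elf1, Elf2, Etv3, Elk3, Gabpa and Spib. They were chosen by name, but with earlier results of these data known, and are 10 of the 21805 protein-coding genes of the annotation. They were examined for acetylation of lysine 27 on histone H3 (H3K27ac), which active promoters and enhancers carry, by chromatin immunoprecipitation and sequencing (ChIP-seq). All peaks that overlapped one of the 10 gene bodies or lay within 20 kb of one were collected, which gave 85 of 23410 peaks in replicate 1, 79 of 25963 in replicate 2 and 90 of 23758 in replicate 3.

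The series lists 22 samples in 11 groups, of which the 3 H3K27ac libraries of BcorΔE9-10 KL cells were used and the other 19 samples were not analysed here. KL cells are Lin-cKit+Sca1- myeloid progenitors and were sorted from bone marrow of male C57BL/6 mice of the genotype scl-Cre-ERT +; Bcorfl/y. At 3 to 6 months of age the animals received 1 mg of tamoxifen a day by intraperitoneal injection for 5 days, and cells were taken 20 weeks later. Tamoxifen activates the Cre recombinase, which is driven by the stem cell enhancer of Scl (Tal1). The recombinase removes exons 9 and 10 of Bcor, the X-linked gene of a corepressor in a Polycomb complex. All 3 libraries carry this deletion, and no H3K27ac library of BcorWT cells was used, so nothing below compares genotypes. The labels number the libraries as replicates 1 to 3, and the study's methods count separate mice.

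ETS proteins share a winged helix-turn-helix DNA-binding domain that reads a GGAA core. Erg, Fli1, Ets1, Gabpa and the PU.1 protein encoded by Spi1 are among the best known regulators of blood stem and progenitor cells, and several family members act at the same sites. Members differ in effect: some activate transcription, some repress it, and the ternary complex factors bind together with serum response factor. Active genes carry H3K27ac at the transcription start site (TSS) and at enhancers, many of which lie in introns.

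A peak within 2.5 kb of a protein-coding TSS of the gene was counted as a TSS peak. Any other peak in the gene body that was not that close to another gene's protein-coding TSS was counted as intragenic. The value of a peak is its fold enrichment, a ratio of summit fragments over background within one library, as the authors' peak caller gave it. It is not scaled between libraries, and the median over all peaks was 4.92, 4.72 and 5.53 in replicates 1, 2 and 3. By an estimate that assumes a fragment length and a genome size, the lists correspond to 18.0, 18.9 and 19.3 M reads. The weakest called summits held 8, 8 and 9 fragments, so that a gene without a peak may still carry weaker acetylation. Acetylation in fewer cells and less acetylation per cell cannot be told apart in bulk chromatin.

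The sort was checked against marker genes. All 6 myeloid progenitor markers, Kit, Gata2, Myb, Cebpa, Mpo and Cd34, had a TSS peak in 3 of 3 libraries. Of genes of antigens that the sort gates against, Ly6a (Sca1) and Itgam (CD11b) had none in any library, but Cd5, a lymphoid antigen of the lineage gate, had one in 3 of 3, with folds of 5.12, 4.06 and 5.85. Its part in the results below was not tested. Erg and Fli1 are also expressed in endothelium, and none of the 5 endothelial markers (Cdh5, Kdr, Tek, Tie1, Emcn) had a TSS peak in any library. None of the 4 stromal markers did either. Of 3 megakaryocyte markers, Gp9 and Itga2b had a TSS peak in 3 of 3 libraries.

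The DNA at the places on which the results turn is given first. Capitals mark exact matches, on either strand, to the ETS motifs CCGGAA and AGGAAG, the motif AGATAA of GATA factors, the motif TGTGGT of RUNX factors and the E-box CAGNTG. Promoters are from RefSeq on GRCm38.p6, read along the gene, and only the bases before the start are printed. Erg is shown at 2 of its start sites, the acetylated one at chr16:95459349-95459598 and the start of its principal transcript at chr16:95530366-95530615, where no peak was found. Elf2 at chr3:51340645-51340894 had the highest TSS fold of the members, and Spib at chr7:44532072-44532321 had no TSS peak. These 4 windows are on the minus strand.
Erg acetylated start: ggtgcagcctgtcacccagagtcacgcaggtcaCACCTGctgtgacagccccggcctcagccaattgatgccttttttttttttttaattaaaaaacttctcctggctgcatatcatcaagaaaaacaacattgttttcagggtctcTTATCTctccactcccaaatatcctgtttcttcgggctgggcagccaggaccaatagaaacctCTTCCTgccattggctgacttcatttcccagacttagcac
Erg principal start: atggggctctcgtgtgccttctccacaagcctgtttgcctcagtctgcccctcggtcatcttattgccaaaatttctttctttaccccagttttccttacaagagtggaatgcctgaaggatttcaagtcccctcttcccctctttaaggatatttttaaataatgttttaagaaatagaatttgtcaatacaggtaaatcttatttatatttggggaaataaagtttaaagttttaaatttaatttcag
Elf2 first start: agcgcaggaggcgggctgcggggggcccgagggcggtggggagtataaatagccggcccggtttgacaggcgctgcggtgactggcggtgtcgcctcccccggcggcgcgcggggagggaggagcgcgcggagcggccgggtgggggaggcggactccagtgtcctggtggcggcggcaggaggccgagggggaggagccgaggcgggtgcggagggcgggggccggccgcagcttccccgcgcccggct
Spib start: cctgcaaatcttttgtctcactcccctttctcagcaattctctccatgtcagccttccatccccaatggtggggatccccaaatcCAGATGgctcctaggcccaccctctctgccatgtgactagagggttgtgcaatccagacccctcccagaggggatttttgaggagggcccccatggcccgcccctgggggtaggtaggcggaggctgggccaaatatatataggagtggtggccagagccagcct

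Next come windows of 200 bases centred on summits of intragenic regions found in 3 of 3 libraries, printed on the plus strand of GRCm38. They are the 3 strongest of Erg, called a, b and c in order of mean fold, at chr16:95439592-95439791, chr16:95455906-95456105 and chr16:95453133-95453332, and the strongest of Elf1, at chr14:79522034-79522233.
Erg region a: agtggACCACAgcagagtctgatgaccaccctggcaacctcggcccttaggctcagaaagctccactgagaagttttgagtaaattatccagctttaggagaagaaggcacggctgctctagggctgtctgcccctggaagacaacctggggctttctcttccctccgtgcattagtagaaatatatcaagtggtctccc
Erg region b: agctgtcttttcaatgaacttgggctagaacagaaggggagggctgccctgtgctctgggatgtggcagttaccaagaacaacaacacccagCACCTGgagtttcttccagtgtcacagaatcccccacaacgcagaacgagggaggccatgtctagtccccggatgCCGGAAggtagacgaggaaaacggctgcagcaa
Erg region c: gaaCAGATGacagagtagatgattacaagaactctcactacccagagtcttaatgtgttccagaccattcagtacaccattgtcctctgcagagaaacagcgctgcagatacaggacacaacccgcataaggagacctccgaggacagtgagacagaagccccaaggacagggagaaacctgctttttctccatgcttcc
Elf1 region: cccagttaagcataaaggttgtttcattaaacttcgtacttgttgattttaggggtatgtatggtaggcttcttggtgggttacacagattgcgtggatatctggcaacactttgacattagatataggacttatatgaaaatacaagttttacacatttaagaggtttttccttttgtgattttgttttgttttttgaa

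The acetylated Erg start held 1 AGGAAG, 1 AGATAA and 1 CAGNTG, read here on the opposite strand where the letters differ. The principal Erg start and the first Elf2 start held none of the 5 motifs. Erg region a held TGTGGT, region b held both CCGGAA and CAGNTG, region c held CAGNTG, and the Elf1 region held none. CCGGAA and AGGAAG share the GGAA core but cannot both cover the same core.

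RefSeq promoter windows of 300 bases matched 8 of the 10 members, Fli1 and Ets1 being the others, and gave 12 windows in all. AGGAAG stood in 5 of these 12 (41.7%), against 35.4% of all 32851 promoters. CCGGAA stood in 1 of 12, that of Gabpa, against 14.9% of all promoters. AGATAA was in 1 of 12 (11.2% of all), TGTGGT in 0 of 12 (16.8% of all) and CAGNTG in 4 of 12 (51.4% of all). With so few windows these shares are descriptions only.

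Around the summits of the members' 21 intragenic regions in 3 of 3 libraries, 3 windows held either ETS motif (14.3%), against 682 of the 1966 such windows over all protein-coding genes (34.7%). Of the 3, 2 were in Erg and 1 in Elf1. AGGAAG was in 2 of 21 (31.8% of all windows), CCGGAA in 1 (3.81%), AGATAA in 0 (6.97%), TGTGGT in 4 (15.6%) and CAGNTG in 7 (45.4%). Windows of 1 gene are not independent, and absence of these letters says nothing of the factors.

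H3K27ac at start sites was asked about first. Of the 10 members, 9 had a TSS peak in 3 of 3 libraries, where 43.3% of all protein-coding genes did, and Spib had none in any library. Their median TSS fold was 14.7, and that of the 9445 genes with a TSS peak in 3 of 3 libraries was 10.2. By fold, Elf2, Fli1 and Etv3 led the order and Ets1 closed it. Fold sets fragments against a background that differs between genes, and fragments alone gave another order. Gabpa summits held 62, 56 and 69 fragments and those of Etv3 48, 48 and 61, the reverse of their folds. Elf2 still had the most in every library and Ets1 the fewest.

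**Figure D1:**
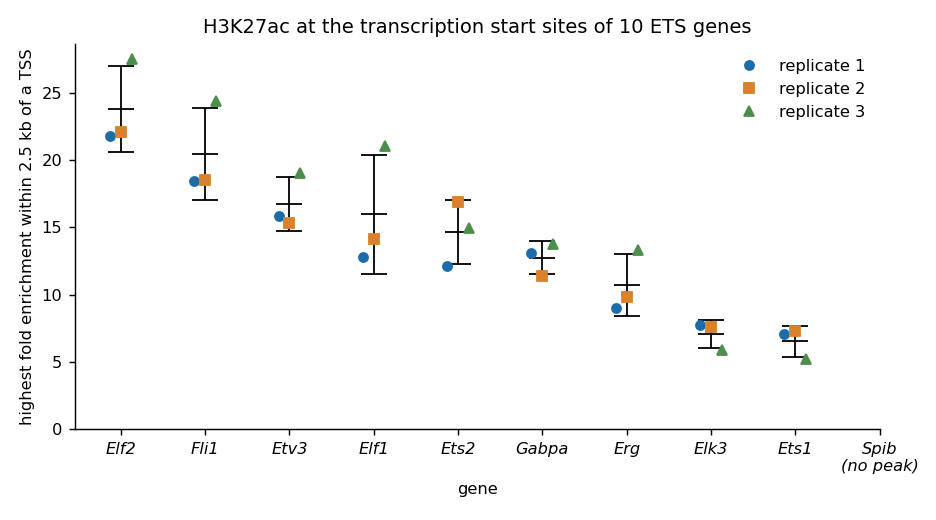
Highest H3K27ac fold enrichment within 2.5 kb of a protein-coding TSS (vertical axis, ratio within each library) for each of the 10 ETS genes, with 1 point per library and the mean ± SD (n = 3) as bars. Elf2 lies between 21.8 and 27.5 in every library, Ets1 between 5.23 and 7.28, and Spib had no peak.

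Elf2, an ELF-group factor also called NERF, lies at chr3:51252720-51340663. Its TSS fold in replicates 1, 2 and 3 was 21.8, 22.1 and 27.5, a mean of 23.8 ± 3.23 (SD, n = 3), at the 95.2 percentile of genes with a TSS peak in 3 of 3 libraries. The summit held 83, 87 and 111 fragments. The acetylation was at 2 of its 3 groups of start sites: the first, and the third, 63.1 kb into the gene, with 17.2, 17.8 and 20.9. No peak lay at the site between them, 14.7 kb in, although a principal transcript starts there. The peak at the third site lies within 2.5 kb of a start of 4930577N17Rik, so its fold cannot be given to Elf2 alone.

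Elf1, the close relative of Elf2 and an activator of haematopoietic genes, lies at chr14:79481194-79582494 and was also acetylated at more than 1 start. The fold at the first start was 12.8, 14.1 and 21.0, a mean of 16.0 ± 4.42 (SD, n = 3), the widest spread among the members. The peak at the second start, 34.5 kb in, had 6.91, 8.0 and 7.99, a mean of 7.63 ± 0.627 (SD, n = 3). A further peak counted with that start, chr14:79518092-79520033, reached past the window and had 7.16, 6.52 and 11.1. The first start and this further peak were highest in replicate 3, and the peak at the second start was not. The first start is 326 bp from that of Wbp4, a gene on the other strand, and their peak is shared, so its fold cannot be given to one of them alone. TSS peaks of Elf1 together covered 5.49 kb and those of Elf2 4.67 kb, at the 99.9 and 99.8 percentiles of TSS-peak width, in sums over several start sites.

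Fli1 and Erg, sister genes of the ERG group that are required in blood stem cells and megakaryocytes, were both acetylated at a start. Fli1 (chr9:32422204-32542861) had 18.4, 18.5 and 24.4, a mean of 20.4 ± 3.41 (SD, n = 3). Erg (chr16:95359169-95586593) had 9.04, 9.81 and 13.3, a mean of 10.7 ± 2.29 (SD, n = 3). The groups of values do not overlap, and Fli1 stood at the 90.5 percentile and Erg at the 53.4.

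Erg was acetylated at a single one of its 4 groups of start sites. Peaks were found only at the last, 127 kb downstream of the first, from which 4 of its 8 protein-coding transcripts start. None of the 3 libraries had a peak within 2.5 kb of the first site, of the second, where the principal transcript starts, or of the third. The acetylated promoter had a GC content of 46% and the principal one 37.3%. In Fli1 the highest summit lay 609, 623 and 383 bp from the closest start, inside the first intron.

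Ets2 and Ets1, the founding ETS-group factors that respond to Ras and MAP kinase signals, are each the neighbour of a member above: 115 kb separate the bodies of Erg and Ets2, and 93.4 kb those of Fli1 and Ets1. Ets2 (chr16:95702075-95721051) had 12.2, 16.9 and 15.0, a mean of 14.7 ± 2.36 (SD, n = 3). Ets1 (chr9:32636221-32757820) had 7.10, 7.28 and 5.23, a mean of 6.54 ± 1.14 (SD, n = 3), from 21, 21 and 16 fragments. Every Ets2 value was above every Ets1 value, and in each library Ets1 also lay below Fli1. Around a second Ets2 start, 4.26 kb in, 2 regions in intron 2 recurred in 3 of 3 libraries, and the stronger had 4.78, 7.61 and 7.80.

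Gabpa, the DNA-binding subunit of GA-binding protein and a regulator of mitochondrial and housekeeping genes, lies at chr16:84834925-84863779. It had 13.1, 11.4 and 13.8, a mean of 12.8 ± 1.22 (SD, n = 3). Its start faces that of Atp5j, the gene of a mitochondrial ATP synthase subunit, at 379 bp, and both peaks there are shared. Its promoter was the single member promoter with CCGGAA.

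The repressors Etv3 and Elk3 lay far from each other in the order. Etv3 (chr3:87525407-87540156), linked to growth arrest in macrophages, had 15.8, 15.3 and 19.0, a mean of 16.7 ± 2.02 (SD, n = 3). Elk3 (chr10:93247414-93311135), a ternary complex factor also called Net, had 7.77, 7.60 and 5.90, a mean of 7.09 ± 1.03 (SD, n = 3). Etv3 was at the 81.7 percentile and Elk3 at the 25.8. No peak lay at the second Elk3 start, 26.2 kb in.

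Spib (chr7:44525993-44532071), the relative of PU.1 that serves B cells and plasmacytoid dendritic cells, had no TSS peak. The nearest called promoter was that of Pold1, the gene of a DNA polymerase subunit, with its start 16.7 kb from that of Spib and a fold of 5.18, 4.25 and 7.62. Mybpc2, on the other side, had none. No called summit in any library held fewer than 8 or 9 fragments, and more are needed where the background is higher. In the Spib body, 19, 32 and 32 fragments gave folds of only 4.16, 5.50 and 5.41. The Spib promoter was thus below detection and not shown to lack acetylation.

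Neighbours in the order were then compared within libraries. Elf2 was above Fli1, Fli1 above Etv3, Gabpa above Erg, Erg above Elk3 and Elk3 above Ets1 in 3 of 3 libraries. The exact sign-flip permutation test, two-sided, gave p = 0.25 for each of these 5 neighbour pairs, the smallest that 3 libraries allow. The order was set by the means of the same 3 libraries, so the neighbour tests cannot check it. Etv3 and Elf1 differed by 1.07-fold in mean, with one direction in 2 of 3 libraries (exact p = 0.75). Elf1 and Ets2 differed by 1.07-fold (exact p = 0.75) and Ets2 and Gabpa by 1.14-fold (exact p = 0.5), again in 2 of 3. These 3 neighbour pairs did not keep one direction across libraries, although every Etv3 fold lay above every Gabpa fold.

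Libraries moved the members unequally. For 6 of 9 members the fold was highest in replicate 3, where the median over all genes with a TSS peak was also highest, at 10.7 against 9.07 and 9.26. Elk3 and Ets1, the lowest 2 of the order, had their lowest fold in replicate 3. The Elk3 summit held 29, 23 and 29 fragments, so its lower fold there did not come with fewer fragments than in replicate 1. By percentile within each library, Ets1 was at 34.7, 34.3 and 11.6 and Elk3 at 40.0, 36.4 and 16.6. Fli1, by contrast, was at 87.7, 89.9 and 93.7.

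The gene bodies were examined next, to ask which members carried acetylation away from their starts. Intragenic peaks were found in 3 of 3 libraries for 5 of the 9 members with a TSS peak, Erg, Fli1, Elf1, Elk3 and Elf2, where 12.9% of all genes with a TSS peak in 3 of 3 libraries had them. Spib, without a TSS peak, had one as well. Ets2, Etv3 and Gabpa had none in any library, although a TSS window of 1 kb in place of 2.5 kb gave Ets2 2 in each, and Ets1 had 1 in replicate 2 only. Long genes have more room for such peaks, and the median length was 75.8 kb for the members and 23.9 kb for the genes with a TSS peak, so counts are also given per 100 kb.

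**Figure D2:**
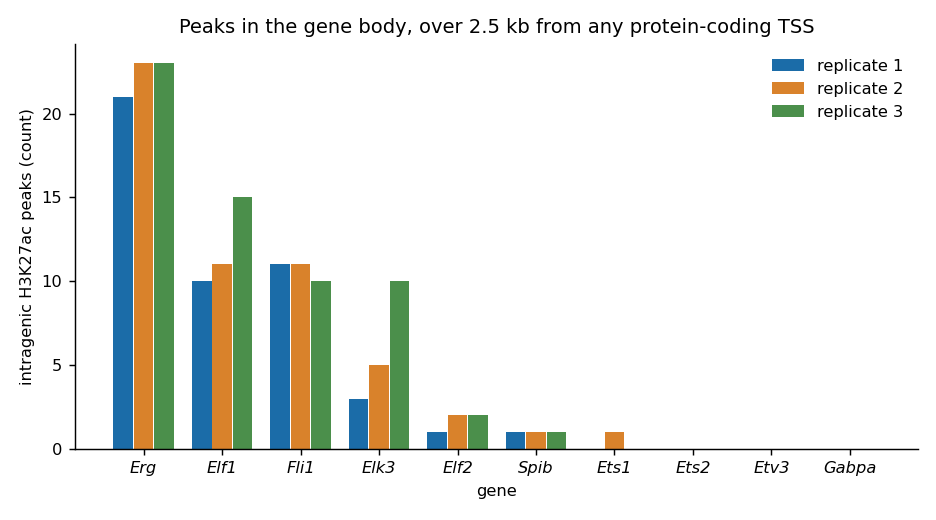
Number of intragenic H3K27ac peaks (vertical axis, count) in each of the 10 ETS genes, with 1 bar per library. Erg had 21 to 23 in each library, and Ets2, Etv3 and Gabpa had none more than 2.5 kb from a TSS.

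The members' intragenic peaks numbered 47, 54 and 61 in replicates 1, 2 and 3. Erg held 21, 23 and 23 of them, Fli1 11, 11 and 10, and Elf1 10, 11 and 15. These 3 genes together held 89.4%, 83.3% and 78.7%. Elk3 varied most, with 3, 5 and 10, while Elf2 had 1, 2 and 2 and Spib 1 in each.

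Per 100 kb of gene body the order was different. Spib, with 1 peak in 6.08 kb, came to 16.5, Elf1 to 11.8, Erg to 9.82, Elk3 to 9.42, Fli1 to 8.84 and Elf2 to 1.90. The value for Spib rests on 1 peak. Among genes with a TSS peak in 3 of 3 libraries, the count of Erg was at the 99.8 percentile and its density at the 97.7.

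The folds in the bodies were lower than at the starts and closer to each other. The highest intragenic fold of Erg was 7.27, 6.75 and 7.26, a mean of 7.09 ± 0.296 (SD, n = 3). That of Fli1 was 4.59, 6.95 and 6.15, and that of Elf1 5.61, 5.00 and 7.37. Spib reached 4.16, 5.50 and 5.41. Elk3 reached 4.15, 3.64 and 5.53, and Elf2 4.87, 3.86 and 4.26. Erg had the highest value of the members in replicate 1, while Fli1 exceeded it in replicate 2 and Elf1 in replicate 3.

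Both kinds of peak were found in 3 of 3 libraries for 5 members, and in all 5 the TSS fold exceeded the intragenic fold in every library. The same held for 79.6% of the 1218 genes with both kinds. The ratio was 1.24, 1.45 and 1.84 in Erg, a mean of 1.51 ± 0.301 (SD, n = 3), and 1.88, 2.09 and 1.07 in Elk3, a mean of 1.68 ± 0.539 (SD, n = 3). Elk3 was above Erg in replicates 1 and 2 and below it in replicate 3, so the lower of them depended on the library. The ratio averaged 2.65 ± 0.324 in Elf1, 3.55 ± 0.766 in Fli1 and 5.55 ± 1.00 in Elf2 (SD, n = 3 each). The exact sign-flip permutation test gave p = 0.25 for each of the 5, again the smallest possible. Among the 1218 genes Erg stood at the 31.1 percentile and Elf2 at the 97.3.

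When peaks were summed as fold times length, the body outweighed the start in Erg. Its intragenic share of this signal was 67.8%, 66.6% and 56.7% in replicates 1, 2 and 3, and averaged 63.7% ± 6.08 (SD, n = 3). Elf1 had 33.6%, 25.3% and 36.9%, and Fli1 27.6%, 33.3% and 21.3%. Every Erg share exceeded every Elf1 and Fli1 share. Elk3 was split between libraries, with 30.6%, 27.6% and 66.0%, and its mean rests on replicate 3. In Elf2 the share was 3.45% ± 0.680 (SD, n = 3).

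Peaks that overlapped between libraries were joined to regions, to ask which places recurred. The members had 90 intragenic regions, 88 in introns and 2 in exons, and 21 were found in 3 of 3 libraries (23.3%), against 15.2% over all protein-coding genes. Of 25 TSS regions 16 recurred in 3 of 3 (64%, against 66.1%). Erg held 12 of the 21 recurrent intragenic regions, Elf1 6, Fli1 2 and Spib 1. Of each gene's own intragenic regions, 41.4% recurred in Erg, 35.3% in Elf1, 8.33% in Fli1 and the only 1 in Spib. A share above 15.2% was thus found in Erg, Elf1 and Spib, and not across the members. None of the 14 in Elk3 or the 4 in Elf2 recurred in 3 of 3 libraries, so that both genes had an intragenic peak in every library but not in the same place.

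**Figure D3:**
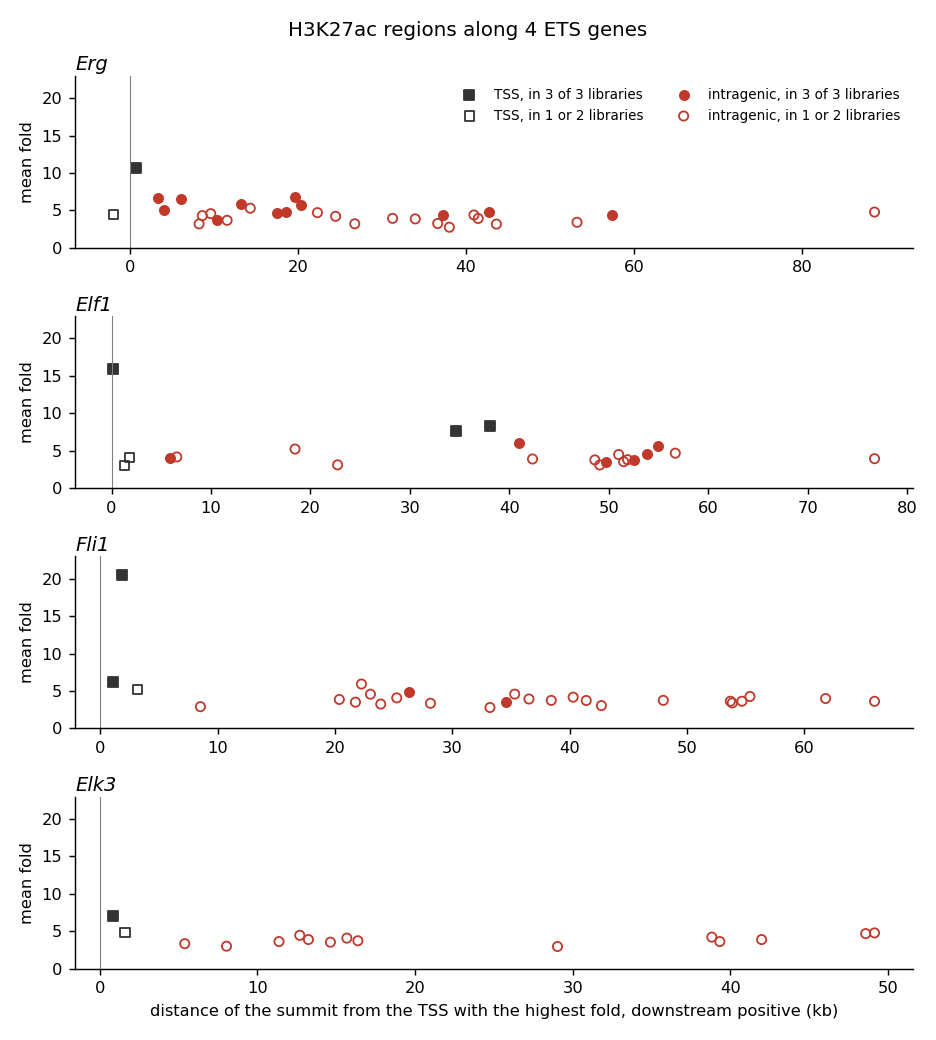
Mean H3K27ac fold enrichment of each region (vertical axis, over the libraries that had it) against the distance of its summit from the TSS with the highest fold (horizontal axis, kb, downstream positive) in Erg, Elf1, Fli1 and Elk3. Filled marks are regions in 3 of 3 libraries, which in Erg lie between 3.34 and 57.4 kb from the start, and squares are TSS regions.

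Erg carried a cluster downstream of its acetylated start. Its 12 recurrent regions lay 3.34 to 57.4 kb from that start, 8 of them within 20 kb, with mean folds of 3.71 to 6.79. The strongest, chr16:95439431-95440015, which holds window a, lies in intron 2 of the principal transcript, 19.7 kb from the acetylated start. Its fold was 6.37, 6.75 and 7.26, a mean of 6.79 ± 0.446 (SD, n = 3). The regions with windows b and c, chr16:95455832-95456456 and chr16:95452225-95453728, averaged 6.66 ± 0.411 and 6.53 ± 0.614 (SD, n = 3 each). The 3 differ by less than their spread. Another 13 Erg regions were found in 1 library and 4 in 2. Intronic enhancers of Erg and Fli1 active in blood stem cells are known, and no region here was matched to them.

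Elf1 had 17 intragenic regions, 6 of them recurrent, and 5 of these 6 lay beyond its second start. The strongest was chr14:79521058-79523109 in intron 1, with 5.61, 5.00 and 7.37, a mean of 5.99 ± 1.23 (SD, n = 3). In Fli1, 2 of 24 recurred. The weaker, chr9:32507897-32508487, lies within 2.5 kb of starts of Gm27201 and Gm38346 that are not protein-coding and were ignored here. Counting starts of any annotated transcript, Fli1 had 8.33 intragenic peaks per library in place of 10.7. The stronger, chr9:32516142-32516675 in intron 1, had 3.63, 4.81 and 6.15, a mean of 4.86 ± 1.26 (SD, n = 3), and lay 26.3 kb from the start. Fli1 thus had as many intragenic peaks per library as Elf1 in replicates 1 and 2, 11 against 10 and 11 against 11, but fewer that recurred. The recurrent Spib region, chr7:44527768-44528109, lies over an exon, 4.15 kb from the start, with 4.16, 5.50 and 5.41, a mean of 5.02 ± 0.751 (SD, n = 3).

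Outside the bodies, within 20 kb, the members had few peaks. Ets2 was the 1 member of the 9 with a TSS peak that had a flanking peak in 3 of 3 libraries, where 12.2% of the genes with a TSS peak in 3 of 3 had one. The peak lies at chr16:95729141-95729517, 27.3 kb from the Ets2 start, with 4.40, 4.75 and 6.15, a mean of 5.10 ± 0.922 (SD, n = 3). Gabpa had a flanking peak in replicate 3 alone, with a fold of 6.76, and Erg, Ets1, Elf1 and Spib had none. Sugt1, beyond the end of Elf1, averaged 29.7 ± 1.31 (SD, n = 3) at its start, above every TSS value of Elf1.

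Stitching was used to ask which members lie in super-enhancers, the long stretches of dense acetylation that often mark cell identity genes. Peaks closer than a stitching distance set between the alternatives of 5 and 20 kb were joined. The joined regions were ranked by fold times length, and those past the point of slope 1 were called. The calls numbered 1383, 1083 and 1190 in replicates 1, 2 and 3. That is many more than the super-enhancers the study reports, so the class used here is looser than the study's. Of the 9 members with a TSS peak 4 had a super-enhancer in 2 or more libraries, and these had it in 3 of 3, where 19% of the genes with a TSS peak in 3 of 3 had one. They were Erg, Fli1, Elf1 and Elf2. Ets2 had one in replicate 2 only, at rank 1063, and the other 5 of the 10 had none. A region counted for any gene whose body it overlapped, so long genes had more room for calls as well. The median length was 75.8 kb for the members and 23.9 kb for the genes with a TSS peak in 3 of 3, and length was not adjusted for.

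The 4 differed in what the called region held. That of Erg ranked 46, 37 and 27 in replicates 1, 2 and 3, spanned 57.5, 43.6 and 46.0 kb and joined 21, 23 and 24 peaks. That of Elf1 ranked 428, 321 and 125 and joined 13, 11 and 14 peaks over 33.5, 21.5 and 22.4 kb. Both stretched over introns downstream of an acetylated start. Fli1 ranked 448, 534 and 454. Its region spanned 66.7 kb with 15 peaks in replicate 1, but only 3.36 and 3.39 kb at the start in replicates 2 and 3. Elf2 ranked 367, 52 and 56 with 3, 2 and 2 peaks, so a broad start made the call. With TSS peaks left out before stitching, Elf2 lost the call in all libraries and Fli1 kept it in 2. Ranked by summed fold, Elf2 kept it in 1 library and Fli1 in 2.

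The other 16 genes of the family in the list used were set beside the members. Of these, 6 had a TSS peak in 3 of 3 libraries, which made 15 of 26 in the family. Elk4, a ternary complex factor like Elk3, had 39.3, 29.2 and 36.0, a mean of 34.8 ± 5.15 (SD, n = 3), above every member in every library. Etv6, a repressor needed by blood stem cells, averaged 20.5 ± 3.03, beside 20.4 in Fli1, and Erf, another repressor, 15.1 ± 1.09 (SD, n = 3 each). Elf4 averaged 10.6 ± 1.81, Spi1, the gene of the myeloid factor PU.1, 8.29 ± 1.21, and Etv5 6.27 ± 1.68 (SD, n = 3 each).

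**Figure D4:**
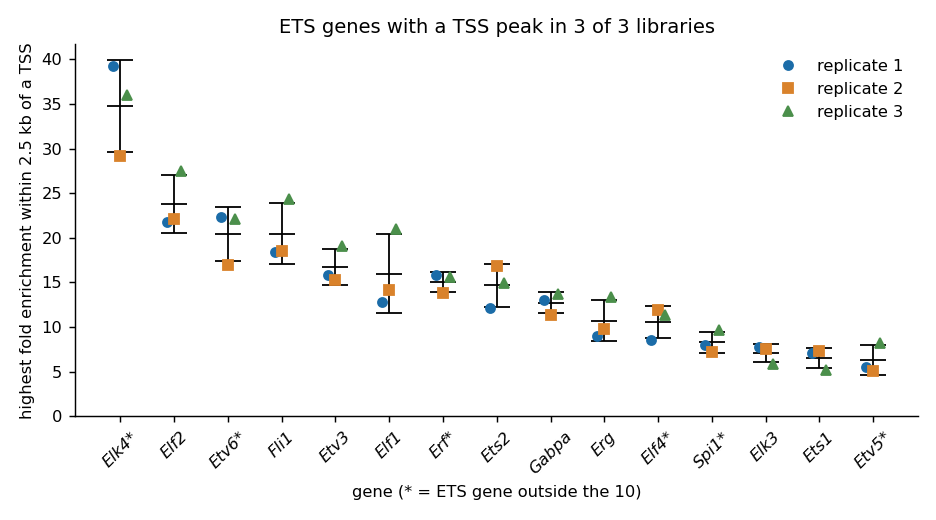
Highest H3K27ac fold enrichment within 2.5 kb of a TSS (vertical axis, ratio within each library) for the 15 ETS genes with a TSS peak in 3 of 3 libraries, with 1 point per library and the mean ± SD (n = 3) as bars. Elk4, outside the 10, averaged 34.8, above Elf2 at 23.8.

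Elk1 had a TSS peak in replicate 2 alone, with a fold of 4.96, and Etv1 in replicate 3 alone, with 3.69. Spic, Elf3, Elf5, Ehf, Etv2, Etv4, Fev and Spdef had none in any library. Elf3, Elf5, Ehf and Spdef are known as epithelial ETS genes. Etv6, at 234 kb about as long as Erg with 227 kb, had 62, 69 and 67 intragenic peaks against the 21, 23 and 23 of Erg. Of the 16 genes 4 had an intragenic peak in 3 of 3 libraries, Etv6, Spi1, Elf4 and Etv5. Spi1 had 2, 7 and 3 intragenic peaks.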

How the data were processed

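Per the labels and methods, the authors mapped the reads with Bowtie2 to the GRCm38 (mm10) genome, took out duplicates and ran MACS2 2.1.1 on every library by itself. The deposited lists give each summit a fold enrichment (a ratio within the library), the −log10 of its p-value and q-value, and a score that was not used. The peak caller's control and settings are not given in the sources used here, and the largest q was 0.0499. An interval listed in several rows was taken as 1 peak, with the highest of its folds. Peaks on unplaced scaffolds, 11, 14 and 11 rows, were left out.

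Genes were those of GENCODE M21, and coordinates count from 1. Fold and p at a summit were solved for whole fragments, which succeeded for 100% of rows within 0.001 of −log10 p, and for 1.52% or fewer after shuffling. Depth is an estimate from the background, with fragments of 200 bp and a genome size of 1.87 Gb assumed. Regions merge peaks that share at least 1 bp. Super-enhancer calls follow the slope of 1 used in the study, on fold times length in place of tag counts. They are not the study's calls and are more numerous. Methods were tested on simulated data. Python 3.11.15, numpy 2.4.6, pandas 2.3.3, scipy 1.17.1 and samtools 1.23.1 were used.

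The members, gene lists and comparisons were chosen with earlier results of these data known. All 10 members are named, with the strongest intragenic and flanking region in 3 of 3 libraries. Other ETS genes are named where they had a TSS peak or are counted by name, and neighbours where a peak lay at their start. A peak at another gene's protein-coding start was counted for neither body nor flank. Alternatives were a −log10 q of at least 5, other TSS windows, flanks and stitching distances, a reciprocal overlap of 50%, summed signal, and leaving out each library. Of the other marker lists, 0 of 5 mature granulocyte or monocyte, 0 of 3 matched erythroid and 1 of 5 lymphoid genes (Cd5) had a TSS peak in 3 of 3 libraries.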

Additional observations from a re-analysis of the deposited data

How the results depend on the processing

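The counts of members with a TSS peak (9 to 10), of members with a super-enhancer (3 to 6), of members with an intragenic peak (4 to 7), of neighbours in the TSS order with one direction in every library (5 to 6) and of other ETS genes with a TSS peak (6) stayed within 1.5 times the reported value under every alternative run. Under a stricter threshold, a −log10 q of 5 or more, the members' intragenic peaks went from 54 to 19.7 per library, flanking peaks from 4.67 to 2.33, members with both kinds of peak from 5 to 3 (TSS higher in 3 of these 3), and recurrent intragenic regions from 21 to 8. A reciprocal overlap of 50% left 12 recurrent regions. Flanks of 10 kb gave 1.67 flanking peaks per library and flanks of 50 kb gave 7.67; leaving out 1 library gave 3 to 6, the lowest without replicate 1. With fold times length summed, chosen for this ratio after seeing the data, TSS exceeded intragenic signal in 3 members in place of 5, and the mean Erg ratio turned from 1.51 to 0.579, by construction of a sum over many peaks. A TSS window of 5 kb took the Spib peak into the TSS class and a window of 1 kb raised the highest intragenic fold of Elf1 to 8.25 and gave Ets2 2 intragenic peaks per library in place of 0. Without replicate 2 the mean ratio was 1.54 in Erg and 1.47 in Elk3, and without replicate 1 it was 1.65 and 1.58, so their order turned. Stitching within 5 kb added Ets2 and Gabpa to the super-enhancer calls, and ranking by summed fold or leaving out TSS peaks took Elf2 from them. Over all values of single genes, those above included, and settings that kept every library, 210 cases moved by no more than 1 SD. Another 29 moved by more, and 1, the Erg ratio, turned. Super-enhancer counts had no SD, so any change in them is among the 29. Values that a setting removed were not counted. With a library left out, 120 moved by no more than 1 SD and 0 by more. Leaving out 1 of 3 libraries cannot move a mean by more than 1 SD of the 3, so these 120 cases do not test robustness.

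No paired analysis was possible because 1 group was analysed and replicate numbers could not be matched to a second. With 3 libraries no exact test can go below 0.25. A peak list holds only summits of 8 or more fragments, so absent peaks limit a level and do not show that a mark is missing. No outlier test was run, since groups of 3 are too small for it.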
